A study of Mus musculus with 7 samples.

Results

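A set of 10 enzyme genes of amino acid metabolism was examined on all 7 arrays of a mouse fibroblast reprogramming series. They were chosen by name: Bcat1, Bcat2, Bckdha and Bckdhb for branched-chain amino acids, Phgdh, Psat1, Psph, Shmt1 and Shmt2 for serine and glycine, and Asns for asparagine. All 10 had a probe set on the array, with 1 probe set each, among 19505 named genes. The genes were picked with results of these arrays in view, so every value below is a description and none is a test.

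Per the labels, mouse embryonic fibroblasts (MEFs) were infected with retroviruses carrying the cardiac factors Gata4 and Tbx5 (GT) and a form of Mef2c, and were harvested at 1 week. The form was isoform 2 with the MyoD transactivation domain attached (GT/M2TAD), isoform 6 (GT/M6), isoform 2 (GT/M2) or isoform 1 (GT/M1). Another pair of transduced arrays had siRNA against Ep300, which encodes the acetyltransferase p300 (siEp300), or a control siRNA (siCtrl). The titles of that pair name GT/M2 and their other labels name GT/M2TAD, so they are called siEp300 and siCtrl only. The last array held MEFs with no treatment (MEF), without virus. For every transduced array the labels also give a medium change at hour 24. For MEF alone they give neither a harvest time nor a medium change. Retroviral infection, the medium change, time in culture and the factors therefore cannot be told apart in any comparison with MEF. Each group was 1 array, so there was no spread between replicates, no standard deviation and no test.

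Branched-chain amino acids (leucine, isoleucine and valine) first lose their amino group to an aminotransferase, cytosolic Bcat1 or mitochondrial Bcat2. The resulting ketoacids are then committed to breakdown by the mitochondrial branched-chain ketoacid dehydrogenase, whose E1 enzyme is made of the Bckdha and Bckdhb subunits. Heart and skeletal muscle rely mainly on the mitochondrial aminotransferase, while Bcat1 is known from embryonic tissue, brain and proliferating cells. Serine is made from a glycolytic intermediate by Phgdh, Psat1 and Psph in turn, and the hydroxymethyltransferases Shmt1 (cytosol) and Shmt2 (mitochondria) convert it to glycine and hand a carbon unit to folate for nucleotide synthesis. Asns makes asparagine from aspartate and glutamine, and is a textbook target of the transcription factor Atf4 when amino acids run short, as are Phgdh, Psat1 and Shmt2.

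Promoter windows of the 10 genes were read from RefSeq on the GRCm38.p6 build, 250 bases before to 50 bases after each annotated start, 14 windows in all. The composite element bound by C/EBP and Atf factors was searched as TGATGNAAN on both strands. It was found in 1 of the 14 windows, that of Asns, where TGATGAAAC began 23 bases before the annotated start. In all, 4.0% of 32851 RefSeq windows of 300 bases held a match. CCAAT, searched on both strands, was found in 7 of the 14 windows and in 37.4% of all windows. The windows of Asns (chr6:7693160-7693459), Psat1 (chr19:15925010-15925309) and Bcat1 (chr6:145076108-145076407) are shown, all on the minus strand. Asns is shown for the match, Psat1 for its 3 CCAAT matches, and Bcat1 for the widest difference between arrays. Capitals mark matches to TGATGNAAN in Asns and to CCAAT or its reverse complement in the others.
Asns: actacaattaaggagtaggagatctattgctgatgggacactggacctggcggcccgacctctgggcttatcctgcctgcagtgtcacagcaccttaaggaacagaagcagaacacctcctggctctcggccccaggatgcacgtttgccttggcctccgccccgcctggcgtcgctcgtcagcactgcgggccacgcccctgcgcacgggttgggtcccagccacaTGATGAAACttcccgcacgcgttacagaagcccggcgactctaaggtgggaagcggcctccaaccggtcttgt
Psat1: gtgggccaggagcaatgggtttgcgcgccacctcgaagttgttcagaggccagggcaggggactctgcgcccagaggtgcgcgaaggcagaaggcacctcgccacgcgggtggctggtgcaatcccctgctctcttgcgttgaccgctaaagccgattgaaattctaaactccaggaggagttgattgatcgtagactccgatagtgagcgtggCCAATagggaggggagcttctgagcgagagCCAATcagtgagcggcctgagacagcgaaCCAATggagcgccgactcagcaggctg
Bcat1: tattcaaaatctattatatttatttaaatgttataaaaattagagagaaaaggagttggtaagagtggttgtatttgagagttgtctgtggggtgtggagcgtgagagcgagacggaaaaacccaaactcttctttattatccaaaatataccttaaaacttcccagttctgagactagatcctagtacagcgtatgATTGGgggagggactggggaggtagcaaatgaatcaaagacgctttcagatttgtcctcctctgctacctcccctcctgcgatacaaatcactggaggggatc
For Psat1 and Bcat1 RefSeq lists a second start, whose windows held neither pattern. The MEF2 consensus, the GATA core AGATAA, the T-box core AGGTGTG and the Myc E-box CACGTG were found in 0 of the 14 windows, against 3.2%, 11.2%, 5.8% and 7.2% of all windows. These searches cover only the letters inside each window.

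The values below are log2 signals, on which a difference of 1 is a 2-fold difference in signal. The median over named genes lay between 5.38 and 5.71 on the 7 arrays. The 95th percentile of 5222 negative-control probes lay between 8.43 and 9.33, and 23.7% to 29.6% of genes were above it. A signal below that percentile is called near background here. Tbx5 was 14.82 on siEp300, 14.83 on siCtrl, 16.14 to 16.23 on the 4 arrays without siRNA and 5.72 on MEF. Mef2c was 18.32 to 18.87 on transduced arrays and 8.24 on MEF. Ep300 was 9.47 on siEp300 and 9.90 on siCtrl, with 9.87 to 10.22 on the remaining arrays. Of 10 cardiomyocyte markers, 6 or 7 were above the negative-control percentile on each transduced array and 0 on MEF. Of 9 fibroblast markers, 6 to 8 were above it on every array. Of 7 macrophage and 6 hepatocyte markers 0 were above it on any array, and of 7 endothelial markers 1 was above it on MEF and 0 elsewhere. The siCtrl and MEF arrays shared 23 exactly equal values, of which 10 were background sets and 8 named genes. No other pair shared more than 9, and their correlation over genes was 0.933, within the range of 0.927 to 0.935 for MEF against any array.

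Of the 10 enzymes, 5 had a lower signal on all 6 transduced arrays than on MEF: Bcat1, Phgdh, Psat1, Shmt1 and Shmt2. Bcat2 and Bckdha had a higher signal on all 6. Of all named genes, 21.2% were lower and 28.0% higher on all 6 in the same sense. Psph, Bckdhb and Asns had transduced arrays on both sides of MEF. All 6 comparisons use the same MEF array, so they are not independent of each other. The array was of bulk RNA, so fewer cells of a type and less RNA per cell cannot be told apart.

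**Figure D1:**
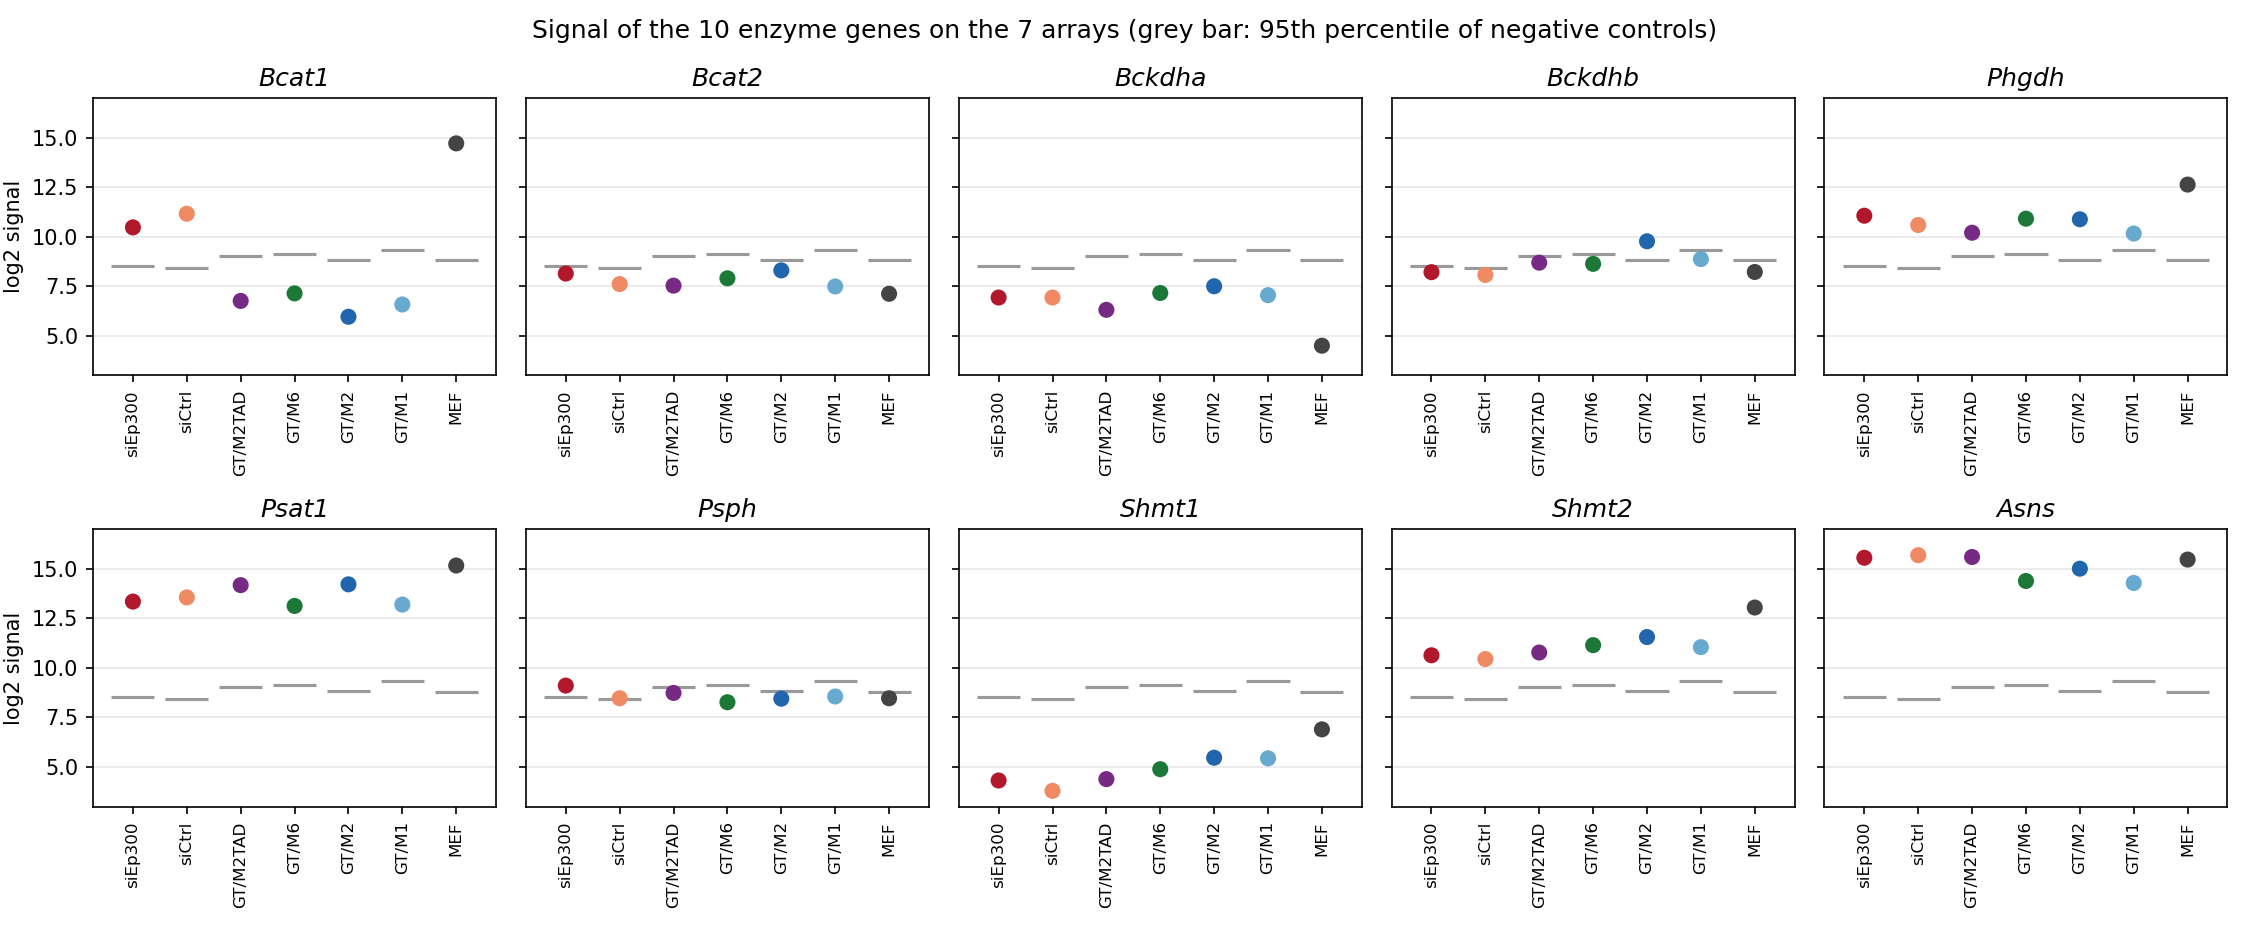
Log2 signal of each enzyme gene (vertical axis) on the 7 arrays (horizontal axis), 1 point per array, with a grey bar at the 95th percentile of that array's negative-control probes. Bcat1 lay below the bar on the 4 arrays without siRNA, stood at 10.47 and 11.16 on siEp300 and siCtrl and reached 14.71 on MEF, while Asns stayed between 14.29 and 15.69.

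Bcat1, the cytosolic enzyme, had signals of 10.47 on siEp300, 11.16 on siCtrl, 6.76 on GT/M2TAD, 7.14 on GT/M6, 5.96 on GT/M2 and 6.58 on GT/M1, against 14.71 on MEF. The arrays formed 3 levels, with MEF highest, the siRNA pair between, and the 4 arrays without siRNA near background. Its span of 8.75 was reached or passed by 0.16% of all named genes. Against MEF it differed by -7.95 on GT/M2TAD, -7.57 on GT/M6, -8.75 on GT/M2 and -8.13 on GT/M1, and 2 genes, itself counted, were at least as far down on GT/M2TAD, GT/M2 and GT/M1 and 4 on GT/M6. Because those 4 signals were near background, the differences are better read as bounds, set at the negative-control percentile of each array: Bcat1 was at least 50.9-fold lower on GT/M2TAD, 47.7-fold on GT/M6, 59.2-fold on GT/M2 and 41.6-fold on GT/M1. On siEp300 and siCtrl both signals were above background, and the differences from MEF were -4.24 and -3.55.

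Bcat2, the mitochondrial enzyme, had signals of 8.14 on siEp300, 7.61 on siCtrl, 7.53 on GT/M2TAD, 7.90 on GT/M6, 8.30 on GT/M2 and 7.49 on GT/M1, against 7.12 on MEF. Every signal was near background, so no fold is given. Its differences from MEF were small and positive, from 0.37 on GT/M1 to 1.19 on GT/M2.

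Bckdha, the alpha subunit of the dehydrogenase E1 enzyme, had signals of 6.93 on siEp300, 6.93 on siCtrl, 6.31 on GT/M2TAD, 7.16 on GT/M6, 7.50 on GT/M2 and 7.05 on GT/M1, against 4.50 on MEF. MEF stood apart at the low end, below the median gene of its array. The differences were 2.44, 2.43, 1.81, 2.66, 3.0 and 2.55 in that order, with every signal near background. Bckdhb, the beta subunit, had signals of 8.21 on siEp300, 8.07 on siCtrl, 8.69 on GT/M2TAD, 8.63 on GT/M6, 9.77 on GT/M2 and 8.87 on GT/M1, against 8.22 on MEF. GT/M2 was the single array on which Bckdhb was above the negative-control percentile, and its difference from MEF was 1.55 there and between -0.15 and 0.65 elsewhere. The MEF signal was near background, so the GT/M2 value is better read as a bound of at least 1.95-fold higher, which is short of 2-fold.

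Serine synthesis was led by Phgdh, which oxidises 3-phosphoglycerate and commits it to serine. Its signals were 11.06 on siEp300, 10.59 on siCtrl, 10.20 on GT/M2TAD, 10.91 on GT/M6, 10.88 on GT/M2 and 10.16 on GT/M1, against 12.63 on MEF. All 7 were above background, and all 6 transduced arrays were at least 2-fold below MEF. The differences ran from -1.56 on siEp300 to -2.47 on GT/M1.

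Psat1, the next enzyme, which adds the amino group, had signals of 13.35 on siEp300, 13.56 on siCtrl, 14.18 on GT/M2TAD, 13.13 on GT/M6, 14.22 on GT/M2 and 13.20 on GT/M1, against 15.17 on MEF. GT/M2TAD and GT/M2 were the transduced arrays nearest to MEF, at -0.99 and -0.94, just inside 2-fold. On the remaining arrays the differences lay between -1.61 and -2.04. Psph, which removes the phosphate in the last step, had signals of 9.11 on siEp300, 8.47 on siCtrl, 8.74 on GT/M2TAD, 8.27 on GT/M6, 8.45 on GT/M2 and 8.56 on GT/M1, against 8.47 on MEF. It was near background on 5 of the 7 arrays, and its differences from MEF lay between -0.20 and 0.64. On MEF it was already near background, so the size of a lower Psph signal on the transduced arrays would have rested on background.

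The hydroxymethyltransferases had their highest signals on MEF. Shmt2 had signals of 10.64 on siEp300, 10.45 on siCtrl, 10.78 on GT/M2TAD, 11.15 on GT/M6, 11.56 on GT/M2 and 11.05 on GT/M1, against 13.05 on MEF. All were above background, and the differences ran from -1.49 on GT/M2 to -2.60 on siCtrl. Shmt1 had signals of 4.32 on siEp300, 3.80 on siCtrl, 4.39 on GT/M2TAD, 4.89 on GT/M6, 5.47 on GT/M2 and 5.44 on GT/M1, against 6.90 on MEF. All 7 Shmt1 signals were near background and MEF was the single array on which it reached the median gene, so the size of its differences, from -1.43 to -3.11, rests on background. For Shmt2, siCtrl was the lowest transduced array and GT/M2 the highest.

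Asns had signals of 15.56 on siEp300, 15.69 on siCtrl, 15.60 on GT/M2TAD, 14.39 on GT/M6, 15.01 on GT/M2 and 14.29 on GT/M1, against 15.47 on MEF. The siRNA pair and GT/M2TAD stood within 0.22 of MEF and slightly above it. GT/M6 and GT/M1 stood below it by more than 2-fold, at -1.07 and -1.18, and GT/M2 between, at -0.45. With level-dependent centring they were -0.91 and -0.97, inside 2-fold. MEF thus lay inside the range of the transduced arrays for this gene.

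Genes are called 2-fold apart here where the 2 log2 signals differed by 1 or more and the higher of them was no lower than the median named gene of its array. Against MEF, 7 of the 10 enzymes were 2-fold apart on siEp300, 6 on siCtrl, 5 on GT/M2TAD, 7 on GT/M6, 7 on GT/M2 and 7 on GT/M1. The shares over all named genes were 22.7%, 21.8%, 23.5%, 21.8%, 21.9% and 22.0% in that order. Since the enzymes were chosen with these contrasts known, nothing is read from the gap. Of those counts 5, 5, 4, 6, 4 and 6 were lower, where 9.29%, 10.9%, 9.50%, 8.79%, 8.34% and 9.52% of all genes were. Bcat1, Phgdh, Shmt1 and Shmt2 were 2-fold lower on all 6 arrays and Bckdha 2-fold higher on all 6, while 4.74% and 6.28% of all genes were lower and higher on all 6. The median difference over the 10 was -0.79, -0.88, -0.43, -1.39, -0.70 and -1.32, and that over all named genes was between 0.01 and 0.12. Bckdha and Shmt1 were near background on all 7 arrays. With the higher signal required to reach the negative-control percentile, neither was 2-fold apart on any array. The counts were then 0 higher and 4 lower on siEp300, 0 and 4 on siCtrl, 0 and 3 on GT/M2TAD, 0 and 5 on GT/M6, 1 and 3 on GT/M2, and 0 and 5 on GT/M1.

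**Figure D2:**
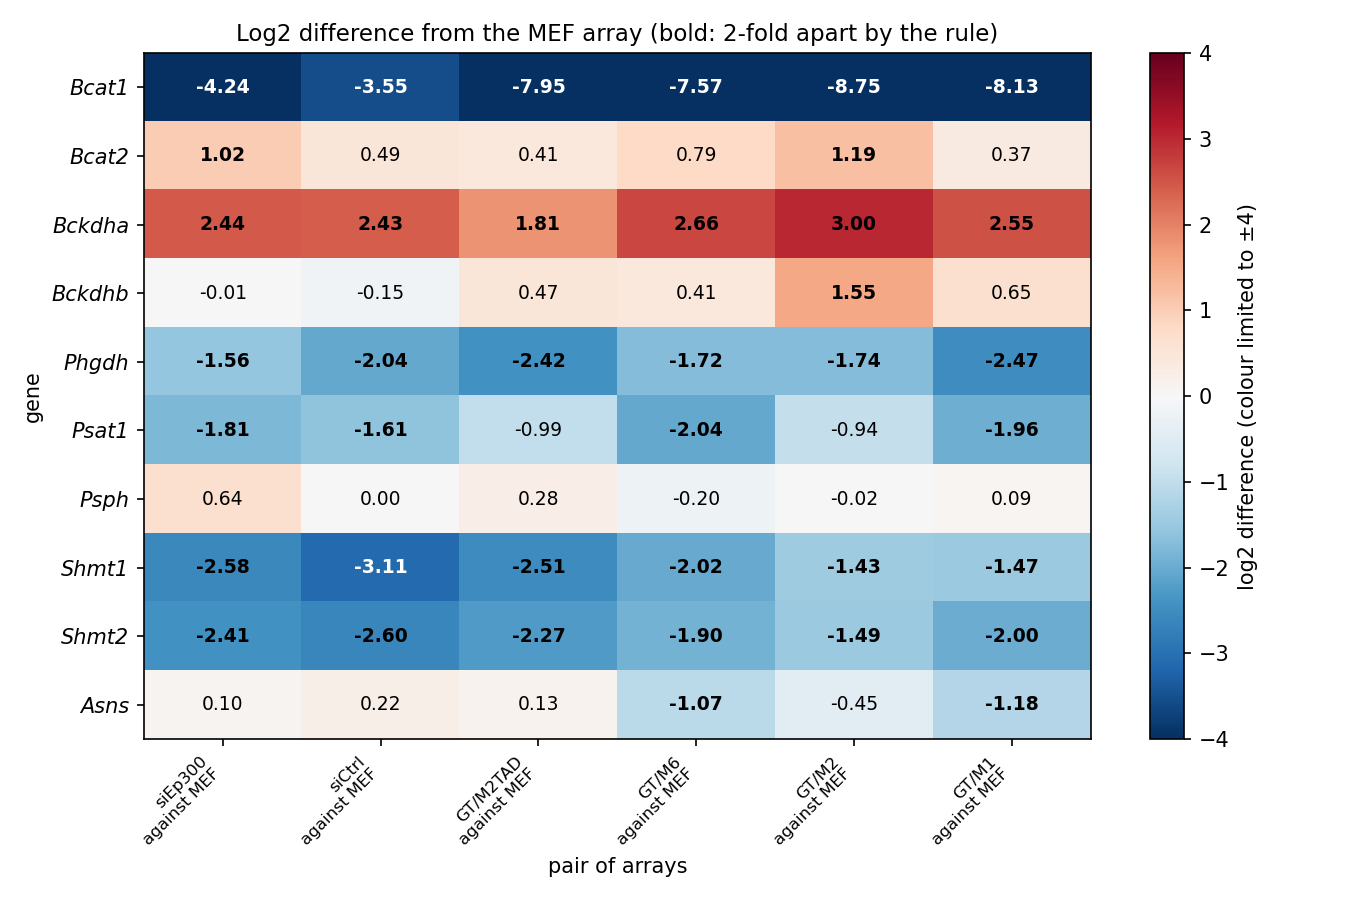
Log2 difference of each enzyme gene (rows) between each transduced array and the MEF array (columns), red where higher and blue where lower than on MEF, with colour limited to 4 units and bold values 2-fold apart by the rule. Bcat1 reached -8.75 on GT/M2, Bckdha was positive on every array, and Asns was beyond 2-fold on GT/M6 and GT/M1 alone, and inside it there with level-dependent centring.

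Markers of dividing cells were lower on all 6 transduced arrays than on MEF, as were Bcat1, Phgdh, Psat1, Shmt1 and Shmt2. All 7 measured markers, Mki67, Top2a, Plk1, Cdk1, Rrm2, Birc5 and Bub1, were 2-fold lower than on MEF on every transduced array, with medians of -6.22 on siEp300, -7.30 on siCtrl, -5.82 on GT/M2TAD, -4.43 on GT/M6, -3.57 on GT/M2 and -4.34 on GT/M1. The log2 of their summed signal was 9.55, 9.23, 10.23, 11.82, 12.67 and 12.03 on these arrays and 16.55 on MEF. Of the 7 markers, 0 were above the negative-control percentile on siEp300, siCtrl and GT/M2TAD, 2 on GT/M6, 3 on GT/M2 and 2 on GT/M1. The sizes of these differences and their order between transduced arrays therefore rest in part on background. Among transduced arrays the summed signal was lowest on siCtrl and highest on GT/M2. Shmt1 and Shmt2 were lowest and highest on the same arrays, although every Shmt1 signal was near background. Bcat1 went the other way, highest on siCtrl at 11.16 and lowest on GT/M2 at 5.96. Phgdh was lowest on GT/M1 and highest on siEp300, and Psat1 lowest on GT/M6 and highest on GT/M2. The part of the markers in the Phgdh, Psat1, Shmt1, Shmt2 and Bcat1 differences was not tested.

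The genes whose pattern over the 7 arrays was most like each enzyme were found by Pearson correlation among 6928 genes. These had a mean signal at or above the median, which lies below the negative-control percentile, and spanned at least 1 log2 unit. These correlations share 1 set of arrays, and MEF lies far from the others for most genes, so several are given also over the 6 transduced arrays. The genes named were picked as the highest of 6928 on these same arrays. High values over 7 or 6 arrays therefore follow from the choice and are no test. Bub1, a kinase of the mitotic checkpoint, was among the 3 most like Shmt1, with r = 0.996 over 7 arrays and 0.988 over 6. Cdk1, the mitotic kinase, was among the 3 most like Shmt2, with r = 0.996 over 7 arrays and 0.983 over 6. Beside them stood Terf1 and Hat1 for Shmt1, and Ddias and Ccdc34 for Shmt2. Bub1 and Cdk1 were above the negative-control percentile on MEF alone, and Shmt1 on 0 arrays. The values over 6 arrays for Bub1 and Cdk1 therefore rest at least in part on signals near background. For Bcat1 the 3 were Lrrc32, Lrrc17 and Epha3, with r of 0.995, 0.994 and 0.994 over 7 arrays and 0.991, 0.984 and 0.984 over 6. Lrrc32 had signals of 8.78 on siEp300, 9.28 on siCtrl, 6.17 to 6.87 on the 4 arrays without siRNA and 11.94 on MEF, the same 3 levels as Bcat1.

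For Asns the 3 were Uggt2, Pde3a and Acly, the last of which makes cytosolic acetyl-CoA, with r of 0.987, 0.978 and 0.973 over 7 arrays and 0.987, 0.981 and 0.972 over 6. For Bcat2 the 3 were Uqcr11, a subunit of respiratory complex III, Mtg1 and Ormdl2, at 0.980, 0.971 and 0.943 over 7 arrays. For Bckdha they were Ccng2, Samd12 and Cpxm2, and for Bckdhb Dnaja3, Dus1l and Lrrc1. For Phgdh they were Nol6, Gtf2f2 and Cbx5, and for Psat1 Fam149b, Slc25a24 and Nfic. The lowest value over the 6 transduced arrays among all 27 pairs was 0.858, for Phgdh with Cbx5. Psph spanned 0.84 over all arrays and was given no such list.

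The siRNA arrays were compared with those without siRNA, to set the siRNA experiment beside the isoform series. On siCtrl, Bcat1 was 4.40 higher than on GT/M2TAD and 5.20 higher than on GT/M2, and it was 1 of 3 enzymes 2-fold apart from GT/M2 and the 1 enzyme 2-fold apart from GT/M2TAD. Of all named genes 16.5% were 2-fold apart from GT/M2, 5.30% higher and 11.2% lower. From GT/M2TAD 9.42% were 2-fold apart, 3.04% higher and 6.38% lower. Since both GT signals were near background, the bounds are at least 5.05-fold against GT/M2 and at least 4.34-fold against GT/M2TAD. Both siRNA arrays stood at least 2-fold above all 4 arrays without siRNA on Bcat1, as they did on 1.42% of all genes. No other enzyme did so, and 0 of the 10 stood at least 2-fold below all 4, where 1.26% of all genes did.

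Fibroblast markers and the Tbx5 signal differed between the same arrays. Of 9 measured fibroblast markers 5 were 2-fold higher and 1 lower on siCtrl than on GT/M2TAD, with a median of 2.22. Postn, a matrix protein of activated fibroblasts, was 15.25 on siCtrl and 10.17 on GT/M2TAD, and Col1a2, a chain of type I collagen, was 15.26 and 11.36. Thy1 went the other way, at 12.89 on siCtrl and 15.15 on GT/M2TAD. Of 10 cardiomyocyte markers 6 were 2-fold lower and 0 higher on siCtrl, and Tbx5 was 14.83 on siCtrl and 16.14 on GT/M2TAD. The part of these in the Bcat1 difference was not tested. Against GT/M2, siCtrl was also lower for Bckdhb, by 1.70 on the log2 scale at 8.07 and 9.77, and for Shmt2, at 10.45 and 11.56, a difference of -1.11. Bckdhb was near background on siCtrl, which gives a bound of at least 2.54-fold lower. The Shmt2 difference was inside 2-fold at -0.88 with quantile normalization, -0.86 with median centring and -0.84 with level-dependent centring. Shmt1 differed by -1.68, but neither signal reached the median gene.

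The siRNA against Ep300 was set against its control siRNA. Ep300 itself stayed inside 2-fold in this pair, its signal being 9.47 with the siRNA against it and 9.90 with the control. The enzyme values below therefore describe a pair of arrays with a small Ep300 difference. The response of the enzymes to a loss of p300 was not tested. Of the 10 enzymes 0 were 2-fold apart, where 2.32% of all named genes were, 1.93% higher and 0.390% lower. Bcat1 had the widest difference, at 10.47 on siEp300 and 11.16 on siCtrl, or -0.69. A difference at least as far down was seen for 4.71% of genes. Psph differed by 0.64, with signals of 9.11 on siEp300 and 8.47 on siCtrl, and Bcat2 differed by 0.53, Shmt1 by 0.53 and Phgdh by 0.47. The median gene was 0.14 higher on siEp300, and the median of the 10 enzymes was 0.16. Asns at -0.13, Shmt2 at 0.19, Psat1 at -0.21, Bckdhb at 0.14 and Bckdha at 0.01 were closer together. With 1 array on each side, differences of this size have no replicate spread to be set against.

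GT/M2TAD was compared with GT/M2, the same isoform with and without the MyoD domain. Bckdha was 6.31 on GT/M2TAD and 7.50 on GT/M2, and Bckdhb was 8.69 and 9.77, differences of -1.19 and -1.08. These 2 subunits of a single enzyme were the 2 of 10 members that were 2-fold apart, where 6.30% of all named genes were, 2.96% higher and 3.33% lower. Only the Bckdhb signal on GT/M2 was above background, which gives a bound of at least 1.66-fold for that gene. Shmt1 also differed by -1.08, at 4.39 and 5.47, but neither signal reached the median gene. Bcat2 at -0.77, Shmt2 at -0.77 and Phgdh at -0.68 were lower too, and Asns at 0.58 and Bcat1 at 0.80 higher, all inside 2-fold. Psat1 differed by -0.05 and so had nearly equal signals on the 2 arrays of isoform 2.

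The Mef2c isoforms were then set against one another. Psat1 was 14.22 on GT/M2 and 13.20 on GT/M1, a difference of 1.02, and was the 1 enzyme 2-fold apart of 10, where 3.29% of all genes were, 1.90% higher and 1.39% lower. Level-dependent centring gave 0.94 and a count of 0. Bckdhb at 0.90, Bcat2 at 0.81, Asns at 0.73 and Phgdh at 0.72 were higher on GT/M2 as well, and 8 of the 10 enzymes had the higher signal there. The smallest of the 8 differences was that of Shmt1 at 0.04, and 48.5% of all genes were at least that far up. Bcat2, Bckdha and Shmt1 were near background on both arrays. On GT/M6 against GT/M2, Psat1 was 13.13 and 14.22, Bckdhb was 8.63 and 9.77, and Bcat1 was 7.14 and 5.96. These 3 enzymes were 2-fold apart, at -1.09, -1.14 and 1.18, where 3.56% of all genes were, 1.85% higher and 1.71% lower. Both Bcat1 signals were near background, and so was Bckdhb on GT/M6, which leaves a bound of at least 1.55-fold lower for Bckdhb. Psat1 was above background on both arrays. Between GT/M6 and GT/M1 0 enzymes were 2-fold apart, where 0.938% of all genes were, 0.646% higher and 0.292% lower, and the widest difference was Phgdh, at 10.91 and 10.16. Among the 6 transduced arrays GT/M2 had the highest signal for Bckdhb and Shmt2, and for Psat1 it was nearly level with GT/M2TAD, at 14.22 and 14.18. GT/M2 was also highest for Bcat2, Bckdha and Shmt1, at 8.30, 7.50 and 5.47, all near background. These 3 comparisons share arrays, so the GT/M2 values enter 2 of them.

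**Figure D3:**
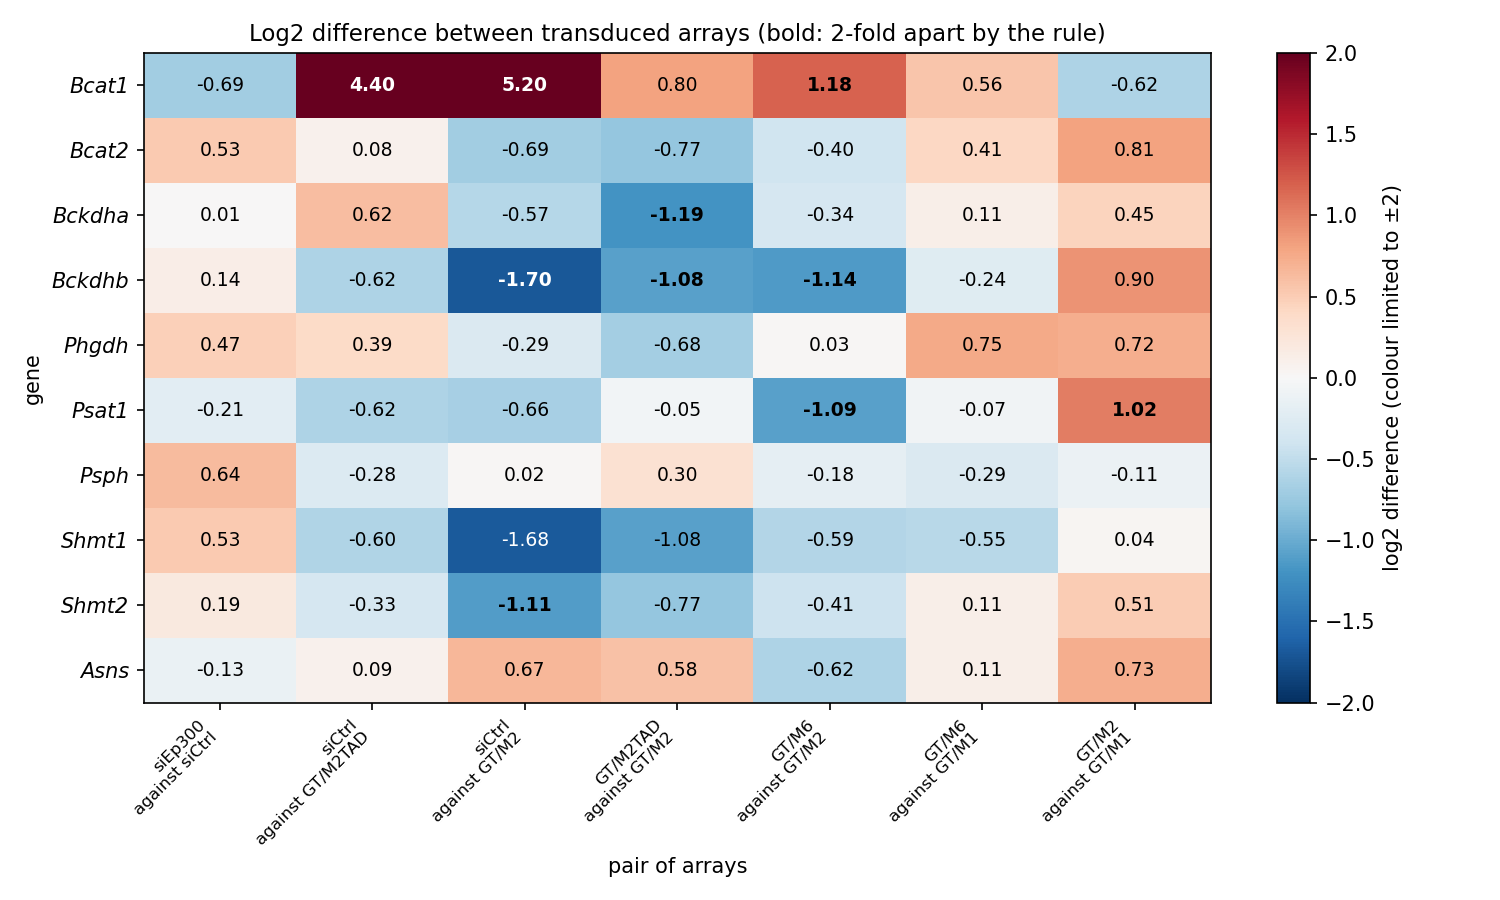
Log2 difference of each enzyme gene (rows) in 7 pairs of transduced arrays (columns), the array named first minus the one named second, with colour limited to 2 units and bold values 2-fold apart by the rule. Bcat1 at 4.40 and 5.20 in the siCtrl pairs was the widest difference, and siEp300 against siCtrl and GT/M6 against GT/M1 held no bold value.

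The rest of the branched-chain pathway was read from lists that were chosen with earlier results of these arrays known. Of 18 enzymes after the dehydrogenase, 7 were 2-fold higher on siEp300 than on MEF, 4 on siCtrl, 8 on GT/M2TAD, 5 on GT/M6, 12 on GT/M2 and 5 on GT/M1, and 0 were 2-fold lower on any of them. The medians were 0.92, 0.66, 0.86, 0.66, 1.28 and 0.68, beside medians of 0.01 to 0.12 over all genes. Over all genes 13.4%, 10.9%, 14.0%, 13.0%, 13.6% and 12.5% were 2-fold higher. Of the 18 enzymes, 6 were above the negative-control percentile on MEF and 8 to 11 on each transduced array. Part of the enzymes counted as higher were therefore near background on both arrays. Aldh6a1, which ends the valine branch in mitochondria, had signals of 8.99 on siEp300, 8.68 on siCtrl, 9.29 on GT/M2TAD, 9.96 on GT/M6, 10.36 on GT/M2 and 10.71 on GT/M1, against 4.64 on MEF. Every transduced array lay above MEF, and the MEF signal was near background. Mccc1, a subunit of the leucine-branch carboxylase, was between 7.82 and 9.25 on the transduced arrays and 6.12 on MEF. It was above the negative-control percentile on 2 of the 7 arrays. Acadsb, which acts on the isoleucine branch, was between 9.18 and 9.98 on them and 8.39 on MEF.

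The complex partners and transporters went both ways. Slc7a8, a transporter of large neutral amino acids, was 2-fold higher on all 6 transduced arrays, at 7.82 to 10.16 against 5.81 on MEF. It was above the negative-control percentile on GT/M2 and GT/M1 alone. Slc43a1, another carrier of branched-chain amino acids, was 2-fold lower on all 6, at 5.17 to 5.80 against 8.43 on MEF, with all its signals near background. Slc7a5, the main leucine carrier of dividing cells, was 15.08 on siEp300, 15.36 on siCtrl, 14.87 on GT/M2TAD, 13.83 on GT/M6, 14.01 on GT/M2 and 13.94 on GT/M1, against 15.51 on MEF. Slc7a5 was inside 2-fold of MEF on the siRNA pair and GT/M2TAD, and 2-fold lower on GT/M6, GT/M2 and GT/M1. Bckdk, the kinase that switches the dehydrogenase off, was 8.93 on siEp300, 8.66 on siCtrl, 9.50 on GT/M2TAD, 9.81 on GT/M6, 10.21 on GT/M2 and 9.51 on GT/M1, against 9.97 on MEF. Dld, the shared E3 subunit, stayed between 12.60 and 13.56 on transduced arrays and was 12.68 on MEF.

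Of 17 measured folate and glycine genes, 8 were 2-fold lower on siEp300 than on MEF, 8 on siCtrl, 8 on GT/M2TAD, 7 on GT/M6, 5 on GT/M2 and 8 on GT/M1, and 1 or 2 were higher. Of all genes 8.34% to 10.9% were 2-fold lower and 10.9% to 14.0% higher on these arrays. Mthfd1l, Mthfd2l, Tyms and Slc19a1 were 2-fold lower on all 6, as were 4.74% of all genes. Tyms, which makes thymidylate, was 7.67 to 9.51 on transduced arrays and 11.11 on MEF, and was above the negative-control percentile on GT/M2 and MEF alone. Mthfd2, the mitochondrial folate dehydrogenase that works beside Shmt2, was 11.77 on siEp300, 11.57 on siCtrl, 10.73 on GT/M2TAD, 9.75 on GT/M6, 10.08 on GT/M2 and 9.58 on GT/M1, against 12.24 on MEF. Its order differed from that of Shmt2, with the siRNA pair nearest to MEF. Folr1, a folate receptor, was 2-fold higher on all 6, at 7.36 to 8.70 on transduced arrays and 4.71 on MEF, all near background.

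Of 12 measured genes of serine use and transsulfuration, 8 were 2-fold higher on siEp300 than on MEF, 7 on siCtrl, 7 on GT/M2TAD, 6 on GT/M6, 6 on GT/M2 and 4 on GT/M1, and 1 or 2 were lower. On these arrays 10.9% to 14.0% of all genes were 2-fold higher and 8.34% to 10.9% lower. Sptlc1 and Slc6a9, for sphingolipid synthesis and glycine transport, were 2-fold apart on none. Serinc3, a membrane protein named for serine incorporation, was 18.66 to 19.11 on transduced arrays and 15.72 on MEF. Ptdss1, which makes phosphatidylserine, was 10.46 to 11.29 on them and 9.39 on MEF. Slc1a5, a carrier of neutral amino acids including glutamine and serine, was 7.17 to 8.39 on them, near background, and 10.87 on MEF. Cth, the last enzyme of transsulfuration, was 9.09 on siEp300, 9.12 on siCtrl, 7.88 on GT/M2TAD, 4.96 on GT/M6, 7.71 on GT/M2 and 5.30 on GT/M1, against 6.54 on MEF. GT/M6 and GT/M1 were the lowest arrays for Cth as for Asns, although 5 of its 7 signals were near background.

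Atf4 itself was 13.63 on siEp300, 13.64 on siCtrl, 13.33 on GT/M2TAD, 12.53 on GT/M6, 12.56 on GT/M2 and 12.53 on GT/M1, against 13.99 on MEF. The siRNA pair and GT/M2TAD lay within 2-fold of MEF and GT/M6, GT/M2 and GT/M1 beyond it. Of 20 genes of the Atf4 list, 7 were 2-fold higher on siEp300 than on MEF, 7 on siCtrl, 6 on GT/M2TAD, 5 on GT/M6, 7 on GT/M2 and 7 on GT/M1, and 2, 1, 3, 4, 4 and 6 were lower. The shares over all genes were 10.9% to 14.0% higher and 8.34% to 10.9% lower. Ddit3, which encodes the stress factor Chop, was 10.67 to 11.63 on transduced arrays and 9.14 on MEF. Nupr1, a stress-induced nuclear protein gene, was 12.74 to 15.84 on them and 11.34 on MEF. Slc7a11, the cystine carrier, was 5.41 to 6.44 on them and 7.67 on MEF, near background throughout. Of 18 aminoacyl-tRNA synthetases 0 were 2-fold higher and 4 to 7 lower on the transduced arrays, with medians between -0.66 and -0.93, beside the same shares over all genes.

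**Figure D4:**
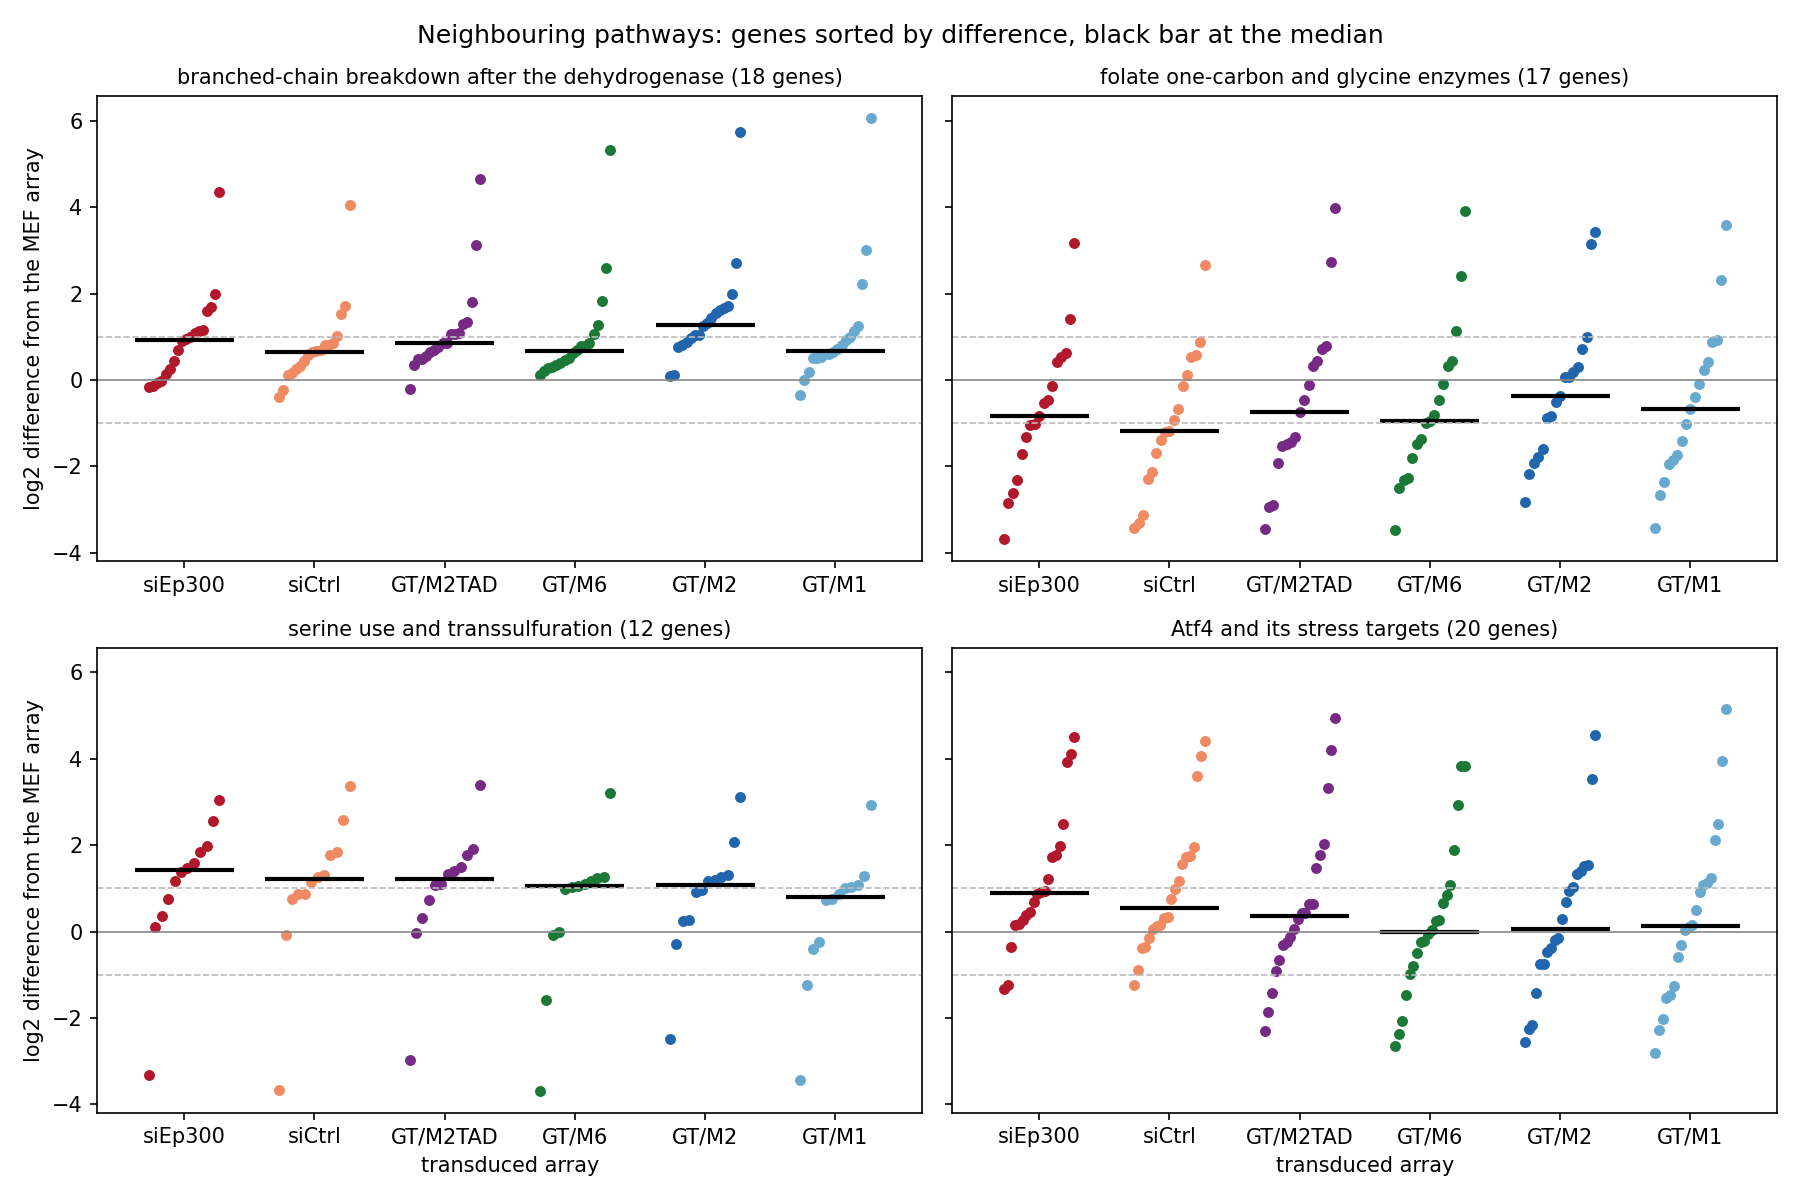
Log2 difference from the MEF array (vertical axis) of each measured gene in 4 neighbouring lists, by transduced array (horizontal axis), sorted from low to high, with a black bar at the median and dashed lines at 2-fold. Branched-chain breakdown enzymes had medians of 0.66 to 1.28 with 0 genes below the lower dashed line, and folate and glycine genes had medians of -0.36 to -1.19.

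The 3 remaining lists are set beside the shares over all genes, of which 10.9% to 14.0% were 2-fold higher and 8.34% to 10.9% lower across the 6 arrays. Of 9 measured genes for asparagine, aspartate, glutamine and glutamate, 0 to 3 were 2-fold higher and 1 or 2 lower than on MEF. Got2, the mitochondrial aspartate aminotransferase, was 15.62 to 16.85 on transduced arrays and 15.74 on MEF, with GT/M2 highest. Ctps, which makes CTP with glutamine, was 11.58 on siEp300, 11.43 on siCtrl, 9.81 on GT/M2TAD, 9.64 on GT/M6, 9.81 on GT/M2 and 9.50 on GT/M1, against 12.02 on MEF. Of 8 proline and ornithine genes, 1 was 2-fold higher, a share near that of all genes, and 1 or 2 were lower. Among the lower was Odc1, the first enzyme of polyamine synthesis, at 10.76 to 11.33 on transduced arrays and 13.43 on MEF. Of 16 glycolysis enzymes, 6 or 7 were 2-fold higher and 1 to 3 lower on each transduced array. Eno3, the muscle enolase, was 11.55 to 13.46 on transduced arrays and 6.39 on MEF. Pgk1, which makes the substrate of Phgdh, was 12.75 to 13.40 on them and 14.91 on MEF, all above background.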

How the data were processed

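The deposited values were log2 signals per probe set from the Clariom S mouse array, 1 array per group. Per the submitters' processing notes the authors used Affymetrix Expression Console 1.4, with SST-RMA normalization per the series text. Its settings and the genome build are not given in the sources used here. A shift common to most genes would be lost in it. Signals near background can understate differences, and can also show spurious ones. Of negative-control probes whose higher signal reached the median gene of its array, 26.8% to 54.2% were 2-fold apart across the pairs of arrays. The number of arrays limits the precision.

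Of 28846 probe sets, the platform annotation gave 19572 a single gene symbol and 0 several, giving 19505 genes. For the 55 genes with several sets, the set with the highest mean was used. Differences were taken for 13 pairs of arrays with pandas 2.3.3 on Python 3.11.15, and the calling rule was run on simulated data. The simulated shifts were larger than the threshold and the noise was small. That run checked the code and not the error rate on these arrays. A gene was 2-fold apart when the log2 difference was at least 1 and the higher signal reached its array's median over named genes. There was no test and no p-value. The 10 members, the 9 neighbouring lists (128 of 145 genes were matched, the remainder are not analysed here) and the searched motifs were chosen with earlier results of these data known. From each list at most the 4 highest and 4 lowest genes among those 2-fold apart were named. Dld, Sptlc1, Slc6a9 and the named fibroblast markers were chosen after their values were seen, as were the correlations without MEF and the CCAAT search. For each member spanning at least 1 unit, the 3 genes most correlated with it were named, without predicted genes and among genes spanning 1 unit with a mean at or above the median. Tbx5, Mef2c and Ep300 were read beside the labels. Tbx5 and Mef2c set the transduced arrays apart from MEF, but cannot tell the forms of Mef2c apart. Ep300 was lowest on siEp300, but inside 2-fold of every other array. The 6 alternatives were quantile normalization, median centring, level-dependent centring (lowess, fraction 0.3), a floor at the negative-control 95th percentile, no floor, and the mean over probe sets.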

Additional observations from a re-analysis of the deposited data

How the results depend on the processing

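Among the 10 enzymes, the count 2-fold apart stayed within 1.5 times its value in all 13 comparisons with quantile normalization, median centring, no floor and the mean over probe sets. With the floor at the negative-control 95th percentile, the counts were 4 for GT/M2, 3 for GT/M2TAD and 4 for siEp300 against MEF, and 1 for GT/M2TAD against GT/M2. Fewer genes reach that floor by construction. With level-dependent centring the count for GT/M2 against GT/M1 was 0. Of 130 single differences, 3 fell inside 2-fold with quantile normalization, 3 with median centring and 6 with level-dependent centring, while 2 passed it with median centring and 0 changed sign among those 2-fold apart. Bcat2 on GT/M2 and siEp300 against MEF was inside 2-fold in all 3 of these, at 0.86 to 0.88 and 0.79 to 0.87. Asns against MEF was -0.97 on GT/M1 and -0.91 on GT/M6 with level-dependent centring, and Psat1 was -1.26 on GT/M2 and -1.25 on GT/M2TAD with median centring. The cause was not tested. No paired analysis was possible because each group had 1 array. Of negative-control probes at the floor, 26.8% to 54.2% were 2-fold apart, so enzymes near background (Bcat2, Bckdha, Shmt1 and mostly Psph and Bckdhb) differed on signals of that kind.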
